A study of Mus musculus with 15 samples.

Results

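Aortas of mice that lacked both apolipoprotein E (Apoe) and the receptor for advanced glycation end products (RAGE) were compared with aortas of mice that lacked Apoe alone, all without diabetes. The comparison was set by the sample labels and used 7 of the series' 15 arrays: 3 labelled Apoe/RAGE null (replicates 13, 14 and 15) and 4 labelled Apoe null (replicates 5, 6, 7 and 8). Every difference below is the Apoe/RAGE null level minus the Apoe null level, in log2 units, so that 1 unit is a doubling. The 95% intervals given are those of limma's fit and are not adjusted for the number of genes. All 7 mice were males of the C57BL/6 strain, carried the Apoe deletion, received 5 daily injections of citrate buffer at 6 weeks of age and were killed at 9 weeks. The whole aorta was taken, from its root to the bifurcation, 1 array per mouse. Mice lacking Apoe alone were bought from a vendor, while those lacking both genes were bred in a colony elsewhere, so the RAGE deletion, the colony and the chromosome region that travels with the deleted gene cannot be told apart. Another mouse of the latter group gave no array, because its labelled cRNA failed. The other 8 arrays, 4 diabetic Apoe null and 4 diabetic Apoe/RAGE null aortas, entered the fit for its estimate of the spread and are used below where stated.

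RAGE, encoded by Ager, is a cell surface receptor of the immunoglobulin family that binds advanced glycation end products, several S100 proteins and the chromatin protein HMGB1. Its cytoplasmic tail binds the formin Diaph1, and signals run through small GTPases and MAP kinases to NF-kB. In the vessel wall this route is known for inducing adhesion molecules, cytokines and oxidant production in endothelium, smooth muscle and macrophages, and mice without it develop less atherosclerosis, above all when diabetic. The non-diabetic pair asks what the deletion does to the aorta before hyperglycaemia supplies extra ligand.

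The arrays were alike in scale. Their medians lay between 4.354 and 4.376 and their pairwise correlations over 45037 probe sets between 0.983 and 0.997. Smooth muscle transcripts were bright on every array, with Acta2 at 13.19 to 13.43 in Apoe null and 13.33 to 13.35 in Apoe/RAGE null aortas and Myh11 at 12.01 to 12.40 and 12.01 to 12.38. Adipocyte transcripts were also bright, with Adipoq at 11.97 to 12.11 and 11.77 to 12.30 and Ucp1, which uncouples respiration in brown fat, at 11.83 to 12.18 and 11.70 to 12.20. In such bulk tissue, fewer cells of a type and less RNA per cell cannot be told apart. Diabetic Apoe/RAGE null replicates 9 and 10 stand apart from their label on the 5 probe sets called in a fit of the 7 non-diabetic arrays alone. There they read like Apoe null aortas, as detailed below, so values that rest on them are given with and without them.

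The probe sets of Ager itself read no lower in Apoe/RAGE null aortas. The first Ager probe set read 3.66, 3.12, 3.34 and 3.17 in Apoe null replicates 5, 6, 7 and 8 and 3.44, 3.49 and 3.29 in Apoe/RAGE null replicates 13, 14 and 15, a difference of 0.09 ± 0.14 (SE). The second read 4.69, 4.59, 4.68 and 4.45 against 4.91, 4.89 and 5.09. All 3 Apoe/RAGE null arrays were above all 4 Apoe null arrays on that probe set, by 0.36 ± 0.17 (SE) (adjusted p = 0.9999), with a 95% interval that just reached 0. The suffix of that probe set marks probes that can match other transcripts. With diabetes the same probe set was higher by 0.43, and by 0.73 without replicates 9 and 10. The sources used here do not place these probe sets inside or outside the deletion, and they were not taken as a check of genotype. Apoe, deleted in both groups, read 3.94, 3.60, 4.04 and 3.71 against 3.20, 3.40 and 3.48, a difference of -0.46 ± 0.13 (SE) with no overlap (95% interval -0.75 to -0.18, adjusted p = 0.9999). Both ranges are near the dim end of the scale.

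Across the whole array no probe set passed. With limma's moderated test over all 15 arrays, 0 of 45037 probe sets (0%) had a Benjamini-Hochberg adjusted p under 0.05, and the smallest adjusted p was 0.62. At an unadjusted p under 0.05 there were 1159 probe sets, 554 higher and 605 lower. At the gene level, with the brightest probe set standing for each of 18193 genes, 243 genes (1.34%) were higher and 233 (1.28%) lower at an unadjusted p under 0.05. The 3 Apoe/RAGE null arrays lay entirely above the 4 Apoe null arrays for 418 genes (2.3%) and entirely below for 468 (2.57%). Differences were small, since 95% of probe sets lay between -0.278 and 0.273. The median standard error was 0.124. Only 127 probe sets differed by 1 or more, and 54 of these had an unadjusted p under 0.05.

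The 12 genes with the smallest p on the higher side included Gsta3, Cyp39a1, Slc22a2 and Mid1, of which the last 3 differed by more than 1 unit. Gsta3, a glutathione transferase, read 4.24, 5.07, 4.84 and 4.92 in Apoe null replicates 5 to 8 and 5.40, 5.57 and 6.16 in Apoe/RAGE null replicates 13 to 15. The groups did not overlap, and the difference was 0.94 ± 0.21 (SE) (95% interval 0.50 to 1.39). Cyp39a1, an oxysterol hydroxylase of bile acid synthesis, read 4.08, 4.95, 4.98 and 4.91 against 6.13, 6.09 and 6.00. Its 3 Apoe/RAGE null values were close together and more than 1 unit above the nearest Apoe null array, and the difference was 1.34 ± 0.30 (SE) (95% interval 0.70 to 1.99). Slc22a2, an organic cation transporter, read 5.37, 6.08, 5.99 and 5.35 against 7.25, 6.89 and 6.86, also without overlap, a difference of 1.30 ± 0.36 (SE). Cyp4a31, a fatty acid hydroxylase with close paralogs that may share its probes, was dim and differed by 0.31. Only 1 of its 2 probe sets was higher.

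The other genes on that side had varied functions. Mid1, a microtubule-bound ubiquitin ligase encoded on the X chromosome, had the largest difference of the 24 named genes, 1.55 ± 0.41 (SE), from levels of 5.10, 5.45, 6.16 and 5.01 against 7.09, 7.24 and 6.62. Apoe null replicate 7 came nearest to the Apoe/RAGE null arrays, and 2 of the 3 Mid1 probe sets were higher. Camta1, a calmodulin-binding transcription activator, read 6.20, 6.65, 6.97 and 6.79 against 7.29, 7.51 and 7.33 (difference 0.72 ± 0.17 (SE), 3 of its 4 probe sets higher). Airn, the non-coding RNA that silences Igf2r on the paternal chromosome, read 7.56, 7.26, 6.87 and 7.05 against 7.99, 8.15 and 7.67, and all 5 of its probe sets were higher. Sarm1, an enzyme that degrades NAD in injured axons (0.52), Enpp4, a membrane phosphodiesterase (0.44), and Rgs17, a brake on G protein signals (0.40), differed by less, as did Ttc36 (0.42) and Tmprss3 (0.33), a membrane serine protease. Tmprss3 was dim, with no level above 3.125 on the 7 arrays. None of the 24 named genes overlapped between the groups except Mmp8, and the adjusted p was 0.9999 for every one of them. The genes were chosen by their unadjusted p, so the separation of their groups is a description.

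On the lower side Tcap and Pla2g7 had the largest differences. Tcap, the titin cap protein of the striated muscle sarcomere, read 9.75, 9.75, 9.48 and 10.42 in Apoe null and 8.95, 8.84 and 8.56 in Apoe/RAGE null aortas, a difference of -1.07 ± 0.26 (SE) (95% interval -1.63 to -0.50). Apoe null replicate 8 was the highest, but replicates 5 to 7 were also above every Apoe/RAGE null array. The score of all 15 measured skeletal muscle genes, the mean of their log2 levels after each gene was centred over the 15 arrays, ranged from -1.89 to 1.42 in Apoe null and from -2.04 to -1.11 in Apoe/RAGE null arrays, with Apoe null replicate 8 alone above 0. Tcap is itself a member of this score, and the part of skeletal muscle in the Tcap difference was not tested. Without replicate 8 the Tcap difference was -0.88.

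Pla2g7, the lipoprotein-associated phospholipase that hydrolyses oxidized phospholipids, read 7.45, 6.88, 7.20 and 7.43 against 5.55, 6.33 and 6.48, a difference of -1.12 ± 0.32 (SE). Replicate 13 was the lowest of the Apoe/RAGE null arrays, and without any 1 array the difference lay between -1.30 and -0.83. Polh, the polymerase that copies past ultraviolet lesions, had the smallest p of this side (difference -0.60 ± 0.13 (SE), 95% interval -0.88 to -0.31), from 5.59, 5.48, 5.57 and 5.50 against 4.69, 5.05 and 5.08. Only that 1 of its 4 probe sets was lower, and its suffix marks probes that can match other transcripts. Gtf2h4, a subunit of the repair and transcription factor TFIIH, was lower on all 4 of its probe sets (-0.54 on the brightest), and Klc4, a kinesin light chain, on both (-0.41). Adgrd1, an adhesion receptor (-0.55), Pdzd3, a scaffold protein (-0.55), the transcription factor Tbx1 (-0.48) and the neutrophil collagenase Mmp8 (-0.43) followed. So did Lima1, an actin-bundling protein (-0.37, 4 of 5 probe sets lower), and Abcc6, a transporter whose loss calcifies elastic tissue (-0.33). The pseudogene Hmga2-ps1 (-0.37), whose probes may match its parent gene, was also lower. Mmp8, Abcc6 and Hmga2-ps1 were dim, with no level above 3.68 on the 7 arrays.

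**Figure D1:**
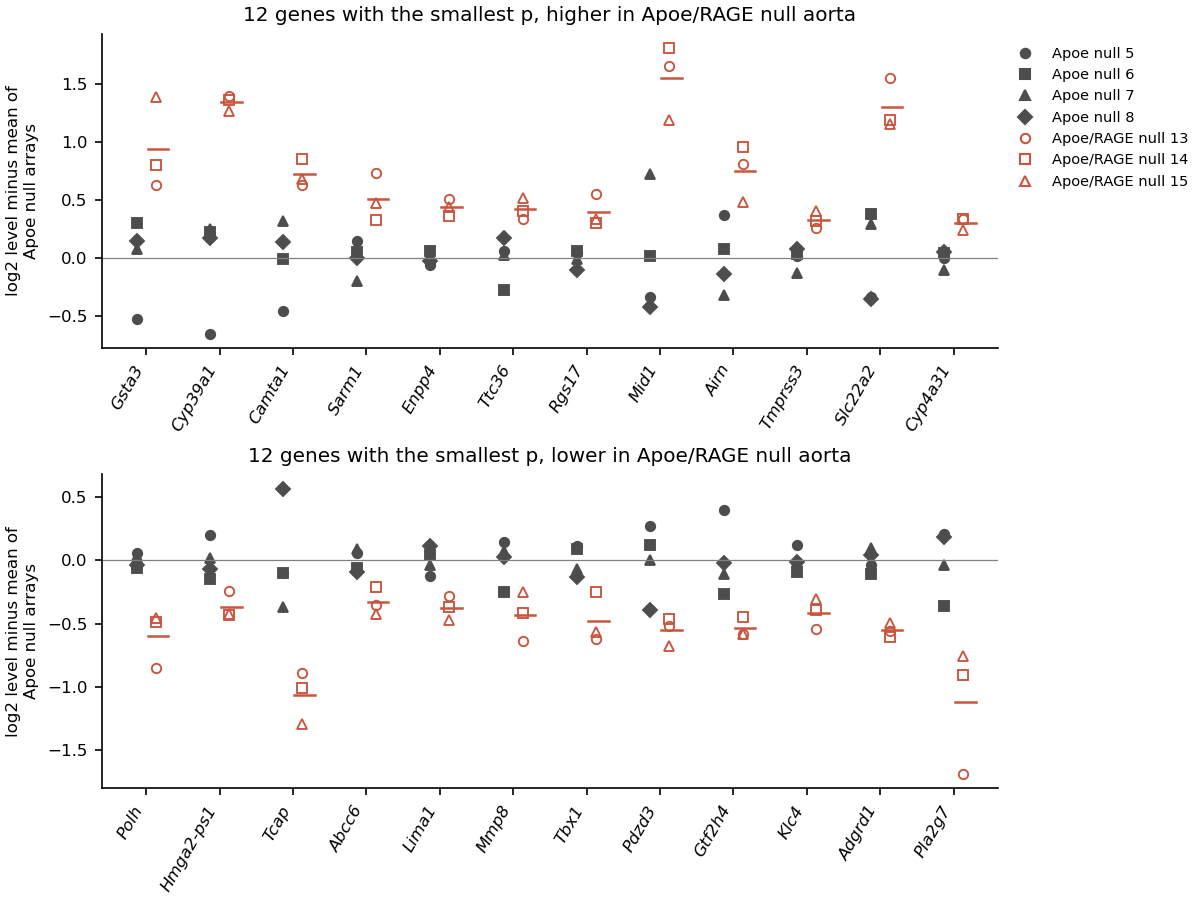
Log2 level in each of the 7 arrays minus the mean of the 4 Apoe null arrays, for the 12 genes with the smallest p on each side, with filled symbols for Apoe null, open symbols for Apoe/RAGE null and a bar at the Apoe/RAGE null mean. Cyp39a1, Mid1 and Slc22a2 are the genes more than 1 unit higher and Tcap and Pla2g7 those more than 1 unit lower, and only Mmp8 overlaps between the groups.

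The genes with the smallest p lay more often on chromosome 17, which carries Ager, than its share of genes. Of the 24 named genes, 9 lie there, 5 on the higher side (Cyp39a1, Enpp4, Airn, Tmprss3 and Slc22a2) and 4 on the lower (Polh, Gtf2h4, Klc4 and Pla2g7). Of the 100 genes with the smallest p, 16 lie on chromosome 17, which holds 4.58% of the measured genes. Of these 100, 10 lie within 200 measured genes of Ager in chromosome order, a stretch that holds 2.20%. The share of genes at an unadjusted p under 0.05 was 6.75% within 200 genes of Ager, 5.08% on the rest of the chromosome and 2.45% on the other chromosomes. The share with non-overlapping groups was 8.5%, 6.47% and 4.73% in that order. Within the 200 genes the differences ran both ways, 12 higher and 15 lower at that p.

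Values along the order were uneven. Of the 100 genes nearest to Ager, 50 to each side, 4% had an unadjusted p under 0.05, against 12% of those 51 to 100 genes after Ager and 14% of those 101 to 150 after it. The remaining windows of 50 genes within 200 of Ager gave 2% or 6%, and all genes 2.62%. Each window holds only 50 genes, so these shares rest on few genes. Rnf5, a ubiquitin ligase and the next measured gene after Ager, read 7.06, 7.29, 7.33 and 7.42 in Apoe null and 7.66, 7.83 and 7.85 in Apoe/RAGE null arrays, higher by 0.51 without overlap (95% interval 0.01 to 1.00). Ring1, a Polycomb subunit (-0.25, 95% interval -0.48 to -0.02), and Zbtb12, a zinc finger protein (-0.42, 95% interval -0.81 to -0.03), were lower without overlap, Zbtb12 by -0.27 without replicate 15. Cyp21a1, the steroid 21-hydroxylase, differed by 0.56 (95% interval 0.13 to 0.99) and by 0.24 without replicate 13. Atp6v1g2, a proton pump subunit, differed by 0.46, and by 0.08 without the same array. These genes and the nuclear receptor Rxrb (-0.19) overlapped between the groups.

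**Figure D2:**
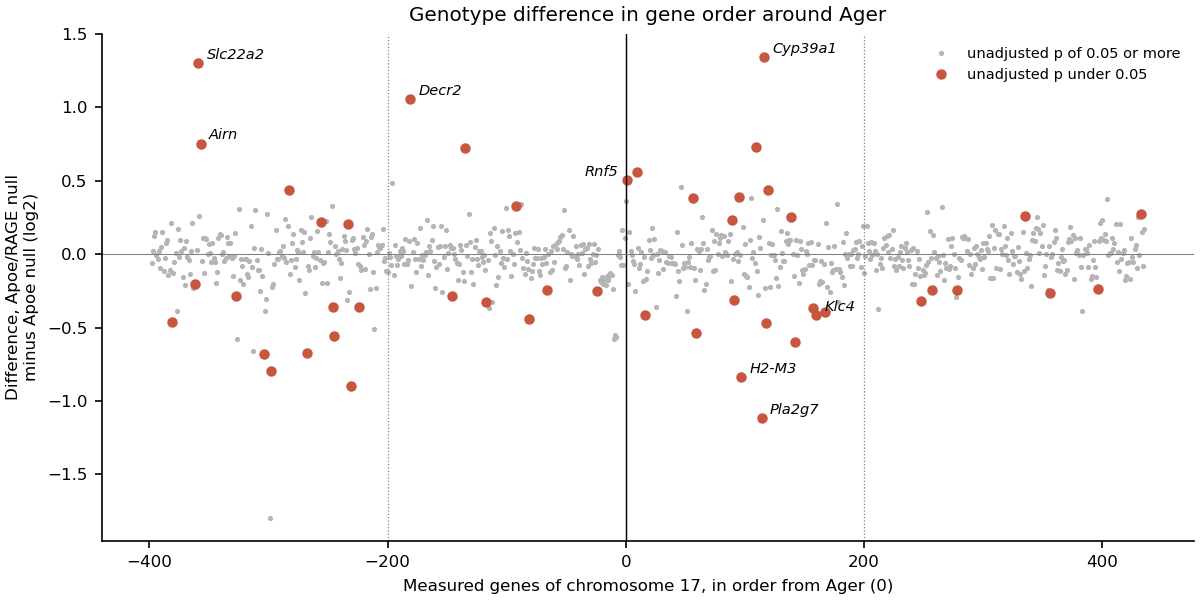
Difference in log2 level, Apoe/RAGE null minus Apoe null, for every measured gene of chromosome 17 against its place in gene order from Ager at 0, with dotted lines 200 genes to each side and coloured points at an unadjusted p under 0.05. Points far from 0 lie on both sides of Ager and in both directions, with Cyp39a1 and Slc22a2 the highest coloured points and Pla2g7 the lowest.

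The calls depended on which other arrays informed the spread. In a limma fit of the 7 non-diabetic arrays alone, 5 probe sets passed at an adjusted p of 0.05, 1 higher and 4 lower. In a fit of all groups without diabetic Apoe/RAGE null replicates 9 and 10, 9 passed, 4 higher and 5 lower, and 4 probe sets were common to both. The median standard error was 0.111 and 0.117 in these fits, against 0.124 with all 15 arrays. Of the 10 probe sets called in either, 5 carry 1 gene name and 4 of those genes lie on chromosome 17. The other 5 are unnamed here. All 10 had non-overlapping groups among the 7 arrays, where 4.87% of all genes did. They were chosen by a small p in fits that hold the same arrays, which favours this, so it is a description.

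Gtpbp2, a GTP-binding protein gene of chromosome 17, passed in both fits (adjusted p = 0.00603 with 7 arrays and 1.15e-04 without replicates 9 and 10). This probe set read 6.65, 6.45, 6.42 and 6.39 in Apoe null and 5.07, 5.25 and 5.13 in Apoe/RAGE null arrays, a difference of -1.32 ± 0.26 (SE), and all 4 Gtpbp2 probe sets were lower. The brightest of them, which stands for the gene in the plot by gene order, differed by -0.15. Among the unnamed probe sets, 1420444_at read 7.48, 7.02, 7.13 and 7.13 against 10.48, 9.84 and 9.44, higher by 2.73, and 1440305_at read 6.53, 6.76, 6.57 and 6.68 against 4.82, 4.75 and 5.09, a difference of -1.75. Both passed in both fits, and every Apoe/RAGE null array lay more than 1 unit from every Apoe null array on each.

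Tnfaip2, a gene induced by tumour necrosis factor and encoded on chromosome 12, passed with the 7 arrays alone (adjusted p = 0.00766) and not without replicates 9 and 10 (adjusted p = 0.237). It read 5.17, 5.04, 4.94 and 4.95 against 3.84, 3.95 and 3.91, a difference of -1.12, with 2 of 3 probe sets lower. The unnamed 1457356_at and 1458179_at passed only without replicates 9 and 10. So did probe sets of 3 named genes. These were H2-M3, a class I molecule that presents formylated peptides (6.11, 6.18, 6.24 and 6.18 against 5.31, 5.21 and 5.50), Decr2, a peroxisomal reductase of unsaturated fatty acids (5.57, 5.84, 5.98 and 6.01 against 6.84, 6.99 and 6.90), and the zinc finger gene Zfp942 (3.22, 3.41, 3.37 and 3.44 against 2.20, 2.41 and 2.68). H2-M3 and this Zfp942 probe set, which is dim, were lower and Decr2 was higher in every Apoe/RAGE null array. Of the 3 Zfp942 probe sets 2 were lower, and the brightest differed by 0.03.

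The diabetic arrays, which the 7-array fit did not use, were then read against these levels. For each of the 5 probe sets called with 7 arrays, every diabetic array was assigned to the nearer of the 2 non-diabetic group means. The 4 diabetic Apoe null arrays were nearer to Apoe null on 5 of 5. Diabetic Apoe/RAGE null replicates 11 and 12 were nearer to Apoe/RAGE null on 4 of 5, the exception being Tnfaip2, whereas replicates 9 and 10 were nearer to Apoe null on 5 of 5. For Gtpbp2 the diabetic Apoe/RAGE null replicates 9 to 12 read 6.79, 6.38, 5.46 and 5.41, and for 1420444_at they read 6.72, 6.80, 9.60 and 10.46. On these probe sets the libraries labelled Apoe/RAGE null replicates 9 and 10 lay with the Apoe null arrays. Other named genes were mixed. Replicates 9 and 10 read 4.57 and 4.57 for Cyp39a1, near the non-diabetic Apoe null mean of 4.73. Replicate 10 read 7.37 for Enpp4 and 6.06 for Klc4, near the non-diabetic Apoe/RAGE null means of 7.39 and 6.02.

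**Figure D3:**
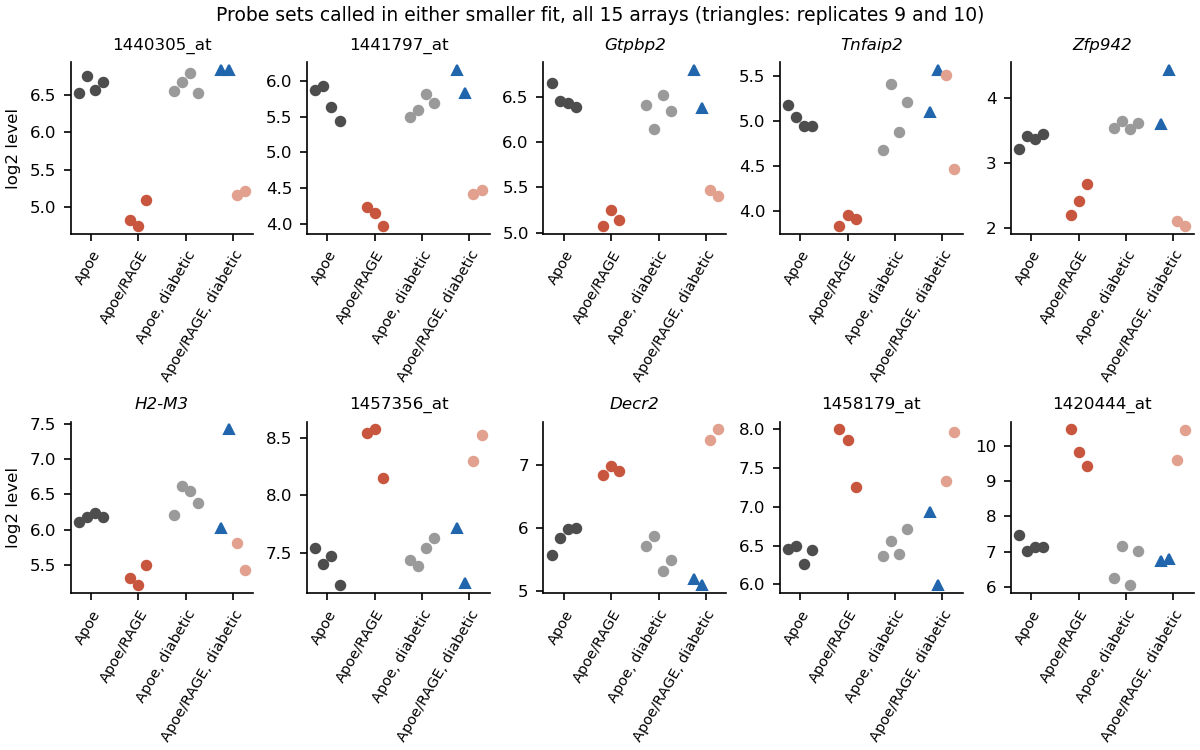
Log2 level on all 15 arrays of the 10 probe sets called in either smaller fit, by group, where Apoe is Apoe null and Apoe/RAGE is Apoe/RAGE null, with triangles for diabetic Apoe/RAGE null replicates 9 and 10. The circles of the diabetic Apoe/RAGE null group lie with the non-diabetic Apoe/RAGE null group in most panels and the triangles on the side of the Apoe null groups, except in the Tnfaip2 panel. Replicate 10 lies above the Apoe null groups for H2-M3 (7.42) and Zfp942 (4.43). Probe sets called only in the fit without replicates 9 and 10 were chosen with these arrays left out, which favours this pattern in their panels.

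The same genotype contrast in diabetic aortas shares no array with the non-diabetic one, but both use the same estimate of the spread. Genes picked for a small p in the non-diabetic contrast are thus favoured to have a small standard error in the diabetic aortas too. Of the 24 named genes, 18 had the same sign there, where 51.0% of all genes did, and 5 of them had an unadjusted p under 0.05 (10% of all genes did so in the same direction). Without replicates 9 and 10, 19 had the same sign, against 54.05% of all genes, and 9 of them had an unadjusted p under 0.05 (12.8% of all genes did so in the same direction). None of the 24 had the opposite sign at that p without these replicates, and with them Tbx1 did (0.34). Of the 9 genes with the same sign at that p without them, 6 lie on chromosome 17: Cyp39a1 (0.98 with diabetes, 1.34 without), Enpp4 (0.20 and 0.44), Airn (0.77 and 0.75), Slc22a2 (0.93 and 1.30), Polh (-0.60 and -0.60) and Klc4 (-0.51 and -0.41). The 3 on other chromosomes were Rgs17 (0.67 and 0.40), Mid1 (0.97 and 1.55) and Pdzd3 (-0.39 and -0.55). Replicates 9 and 10 were set apart for reading like Apoe null arrays on some probe sets that separate the genotypes. Leaving them out thus favours same-sign differences at such genes and their neighbours on chromosome 17, so the rise to 9 genes is a description.

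Other named genes were closer together in the diabetic mice. Gsta3 read 4.99, 5.07, 4.69 and 4.53 in diabetic Apoe null and 4.86, 5.22, 5.07 and 5.24 in diabetic Apoe/RAGE null replicates 9 to 12, a difference of 0.28, or 0.33 without replicates 9 and 10. Tcap differed by -0.11 there (-0.14 without them) and Adgrd1 by -0.04 (-0.16). Camta1, with -0.28 (-0.16), and Pla2g7, with 0.38 (0.40), had the opposite sign. The 24 genes were picked on the non-diabetic contrast, so smaller differences with diabetes are favoured by the choice itself and are given as a description. Over the whole array a test of the difference between the genotype effects with and without diabetes called 0 of 45037 probe sets (0%), with a smallest limma adjusted p of 0.675 and 3251 probe sets at an unadjusted p under 0.05. Without replicates 9 and 10 it called 0 as well, with a smallest adjusted p of 0.526 and 3905 probe sets at that unadjusted p.

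Genes of the RAGE pathway were examined next, from ligands to targets. They were part of 37 lists that also covered the vessel wall, cell types, metabolism, stress, immunity and the clock. Of the 512 listed genes 458 were measured, and 0 passed the adjusted test. At an unadjusted p under 0.05, 9 were higher and 15 lower (5.24%, where 2.62% of all genes were). The lists were chosen with earlier results of these data known, so that share is a description. For 368 of the 458 genes the 95% interval of the difference lay within 1 unit of 0, and for 191 within 0.5.

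Of the RAGE ligands, 10 of 13 were measured, 5 higher and 5 lower, with a median difference of 0.01. The calgranulins S100a8 and S100a9, which neutrophils and monocytes release, had the largest differences. S100a8 read 5.37, 3.18, 3.92 and 4.66 in Apoe null and 3.06, 2.94 and 3.12 in Apoe/RAGE null aortas (difference -1.24 ± 0.52 (SE), 95% interval -2.35 to -0.13), and S100a9 read 5.42, 3.69, 4.54 and 4.80 against 3.55, 3.19 and 3.48 (difference -1.21 ± 0.45 (SE), 95% interval -2.17 to -0.24). Apoe null replicate 5 was the highest and replicate 8 the next for both, and the groups did not overlap. Apoe null replicate 6 lay just above the Apoe/RAGE null arrays on both.

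The remaining ligands lay close together. S100b (0.18, 95% interval -0.50 to 0.86), S100a13 (0.17, -0.20 to 0.54) and S100a6 (0.05, -0.23 to 0.33) are calcium-binding proteins of glia, secretory cells and fibroblasts. S100a4 (-0.07), S100a1 (0.05), the amyloid precursor App (-0.10), the integrin Itgam (0.05) and transthyretin, Ttr (-0.02), also overlapped between the groups.

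Genes of the relay behind the receptor lay close to 0. All 20 measured members, of 24 listed, had 95% intervals within 1 unit of 0, and the median was 0.01 with 11 higher and 9 lower. Diaph1, the formin that binds the RAGE tail, read 8.85, 8.64, 8.62 and 8.45 against 8.60, 8.63 and 8.41 (95% interval -0.32 to 0.13). The GTPase Rac1 differed by 0.13 (-0.09 to 0.36), the adaptors Myd88 by 0.08 and Tirap by 0.17, the NF-kB subunit Rela by -0.04 and Stab1, a scavenger receptor for glycated proteins, by -0.18. Other receptors of glycated or oxidized ligands also lay near 0, with Cd36 at 0.05, Msr1 at -0.11 and Tlr4 at 0.04.

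Targets of vascular inflammation leaned lower without passing. Of 17 measured, 14 were lower (median -0.12, where the median of all genes was 0.002). The list's median was -0.18 without replicate 14 and -0.08 without replicate 6, the ends of its range when 1 array was left out. Selp, P-selectin of activated endothelium and platelets, read 6.18, 6.47, 6.15 and 6.00 against 5.91, 5.42 and 5.73 (difference -0.51 ± 0.24 (SE), 95% interval -1.02 to 0.00), and the 3 Apoe/RAGE null arrays were the lowest. Icam1, an adhesion molecule for leukocytes, read 6.60, 6.71, 6.40 and 6.54 against 6.28, 6.09 and 6.29 (difference -0.34 ± 0.29 (SE), 95% interval -0.96 to 0.28), also without overlap. The cytokine Il6 was dim on all arrays (-0.26, 95% interval -0.47 to -0.04). Vcam1 (-0.27, 95% interval -0.98 to 0.45), Ccl2 (-0.04), Tnf (0.15) and the endothelial Sele (0.01) overlapped.

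Endothelial markers leaned the same way. Of 14, 11 were lower (median -0.13; -0.05 without replicate 14 and -0.20 without replicate 15). The tight junction gene Cldn5 read 6.87, 6.57, 6.34 and 6.47 against 6.20, 5.94 and 6.09 and the receptor Tie1 6.05, 6.20, 6.04 and 6.28 against 5.79, 5.93 and 6.04, with no overlap, though only just for Tie1, while Pecam1 differed by 0.05 and Kdr by 0.04. The endothelial score was -0.14 to 0.04 in Apoe null and -0.29 to -0.01 in Apoe/RAGE null arrays. The macrophage score was -0.30 to -0.07 in Apoe null and -0.44 to -0.20 in Apoe/RAGE null arrays, with 14 of 17 markers lower. The parts of both in the inflammation values were not tested.

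Genes of the TGF-beta axis, which drives matrix synthesis in the vessel wall, had a different median than in the diabetic pair. The 19 measured genes had a median of 0.05, against -0.47 in the diabetic aortas and -0.45 there without replicates 9 and 10, and all 19 had 95% intervals within 1 unit of 0. Without replicate 5 the median was -0.03. The difference between these medians was not tested. The receptors were on the higher side. Tgfbr3, the co-receptor betaglycan, read 9.55, 9.88, 10.08 and 10.04 against 10.20, 10.21 and 10.20 (difference 0.32 ± 0.11 (SE), 95% interval 0.09 to 0.55), and Tgfbr1 read 8.88, 9.39, 9.52 and 9.18 against 9.59, 9.55 and 9.54 (difference 0.32 ± 0.15 (SE), 95% interval -0.01 to 0.65). The 3 Apoe/RAGE null arrays were above all Apoe null arrays for both, though close to the nearest. Apoe null replicate 5 was the lowest on both, and without it the differences were 0.21 and 0.20. The ligands Tgfb2 (-0.25) and Tgfb3 (-0.29) were on the lower side and Tgfb1 (-0.02) level, as were the kinase Rock1 (0.04) and the target Ccn2 (-0.05).

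Matrix genes were mostly lower by small amounts. Of 21 measured, 17 were lower (median -0.15), and the median was -0.02 without replicate 15 and -0.23 without replicate 13. Eln, elastin, read 11.60, 11.97, 11.91 and 11.27 against 11.38, 11.21 and 10.52 (difference -0.65 ± 0.21 (SE), 95% interval -1.10 to -0.20). Replicate 15 was the lowest, replicate 13 lay just above Apoe null replicate 8, and without replicate 15 the difference was -0.39. Mfap2, a microfibril protein (-0.26), Lox, which crosslinks elastin and collagen (-0.28), and Loxl1 (-0.24) were next by p. The collagen genes Col1a1 and Col3a1 differed by -0.34 and -0.14, Col1a1 by -0.17 without replicate 15. Contractile genes of smooth muscle were level, with 8 of 15 higher, a median of 0.00 and all 15 intervals within 1 unit. Acta2 differed by 0.02 (95% interval -0.13 to 0.18), Tagln by 0.06 and Myh11 by 0.00.

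**Figure D4:**
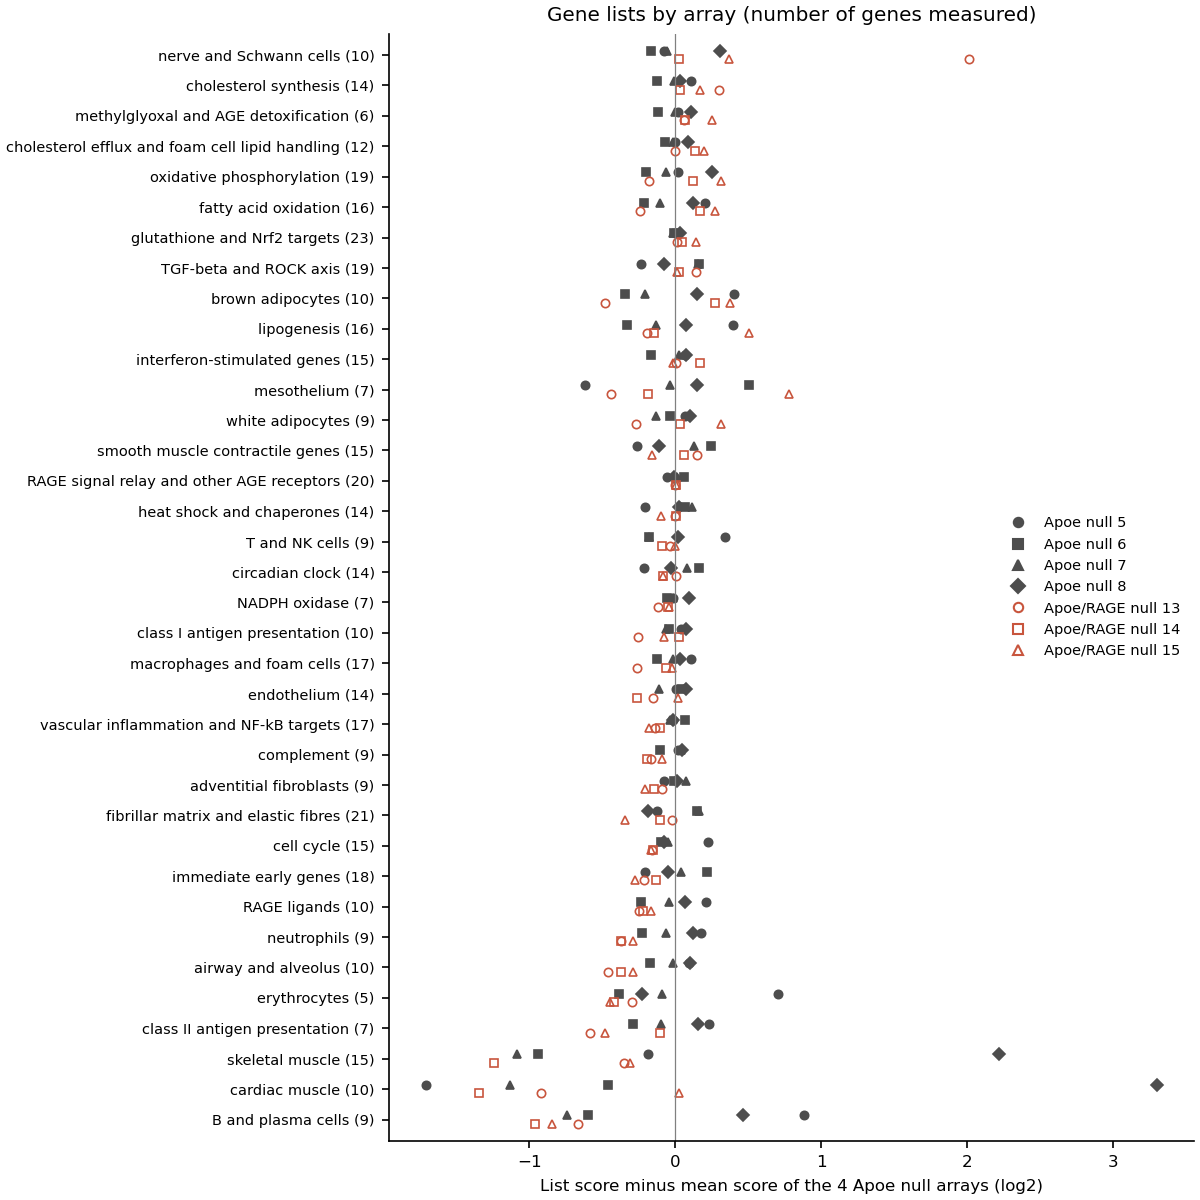
Score of each gene list in each array, the mean centred log2 level of its measured genes, minus the mean of the 4 Apoe null arrays, with filled symbols for Apoe null, open symbols for Apoe/RAGE null and the number of genes in parentheses. Most lists lie within 0.5 of 0, and the widest have arrays far to the right: replicate 8 in cardiac and skeletal muscle, replicate 5 in erythrocytes, replicates 5 and 8 in B and plasma cells and replicate 13 in nerve. Mesothelium is spread on both sides of 0 in both groups.

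Markers of tissues beside the wall differed from mouse to mouse. Myl7, an atrial myosin light chain, read 6.14, 7.06, 6.40 and 12.17 in Apoe null replicates 5 to 8 and 4.19, 6.50 and 7.22 in Apoe/RAGE null replicates 13 to 15, so replicate 8 stood far above all other arrays. The cardiac list had a median of -0.36, with 0.00 without replicate 8 and -0.77 without replicate 5 (-0.21 over all probe sets of its genes), and its scores ranged from -1.67 to 3.34 and from -1.30 to 0.07. In the skeletal list 14 of 15 genes were lower, and its median of -0.58 was 0.01 without replicate 8 and -0.99 without replicate 6. Sympathetic nerve genes stood out in replicate 13, where Th, the rate-limiting enzyme of catecholamine synthesis, read 8.51 and the neurofilament Nefl 7.34, against 3.99 to 4.44 and 2.53 to 3.13 in Apoe null aortas. The nerve list had a median of 0.47 with 9 of 10 higher, 0.25 without replicate 13 and 1.00 without replicate 14. Over all 25 probe sets of these genes the median was 0.12, and with dim probe sets left out it was 0.20.

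B and plasma cell markers were highest in Apoe null replicates 5 and 8. Ighm, the heavy chain of immunoglobulin M, read 10.25, 7.55, 6.89 and 9.32 against 7.90, 6.38 and 6.94, and Ms4a1, the B cell antigen CD20, 5.28, 3.35, 3.47 and 5.23 against 2.92, 2.80 and 2.81. Of 9 B and plasma cell genes, 8 were lower (median -0.74; -0.48 without replicate 5, -0.23 over all 23 probe sets of these genes and -1.67 with dim probe sets left out), none with an unadjusted p under 0.05. Erythrocyte genes were highest in replicate 5, where Alas2, of haem synthesis, read 9.33 against 7.48, 8.21 and 8.02 in the other Apoe null arrays. The difference for Alas2 was -0.99 ± 0.37 (SE) (95% interval -1.79 to -0.20), and the list's median of -0.49 became -0.16 without replicate 5 and -0.74 with dim probe sets left out, and the Alas2 difference -0.64. The neutrophil score, which includes S100a8 and S100a9, was -0.35 to 0.05 in Apoe null and -0.50 to -0.41 in Apoe/RAGE null arrays, and of its other 7 members only Ngp, a granule protein, had an unadjusted p under 0.05 (-0.32, 95% interval -0.58 to -0.06; -0.19 without replicate 13). Myeloperoxidase, Mpo, differed by 0.19 and neutrophil elastase, Elane, by -0.03. Its part in the calgranulin differences was not tested.

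Macrophage genes leaned lower without passing, with 14 of 17 lower, a median of -0.14 and -0.03 without replicate 13. Cd68 read 5.62, 5.29, 5.29 and 5.56 against 5.07, 5.56 and 5.19, and Trem2, a marker of lipid-laden macrophages, 4.50, 4.35, 4.53 and 4.37 against 4.37, 4.49 and 4.06. Class II antigen presentation was lower for 7 of 7 genes (median -0.55), though none had an unadjusted p under 0.05. H2-Ab1 read 7.42, 7.11, 7.29 and 7.67 against 6.57, 7.27 and 6.56 and the invariant chain Cd74 8.89, 8.11, 8.46 and 8.79 against 7.75, 8.42 and 7.87. Replicates 13 and 15 were the lowest and replicate 14 lay among the Apoe null arrays. Of the 7 genes, 5 lie on chromosome 17 with Ager. The B cell score was -0.69 to 0.93 in Apoe null and -0.91 to -0.62 in Apoe/RAGE null arrays, and its part in the class II values was not tested.

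A marker of the airway gave a large difference among the listed genes. Scgb1a1, the secretory protein of club cells in the bronchi, read 5.64, 5.52, 6.30 and 7.0 in Apoe null and 3.12, 3.31 and 3.98 in Apoe/RAGE null samples, a difference of -2.64 ± 0.84 (SE) (95% interval -4.43 to -0.86, adjusted p = 0.9999). Every Apoe null array was more than 1 unit above every Apoe/RAGE null array. Scgb3a2, of the same cells, read 5.22, 4.75, 5.32 and 6.04 against 4.28, 4.48 and 4.25 without overlap. The alveolar surfactant genes Sftpc (-0.14), Sftpb (-0.07) and Sftpa1 (-0.07) were dim on all 7 arrays, with the highest Sftpc level at 3.75. Of the airway and alveolus list, which also holds Ager, 8 of 10 genes were lower, with a median of only -0.09. Its scores were -0.23 to 0.05 in Apoe null and -0.51 to -0.34 in Apoe/RAGE null arrays. These scores are means that include Scgb1a1 and Scgb3a2, so the large differences of these genes move them.

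Among metabolic lists, cholesterol synthesis leaned higher. Of 14 measured genes, 12 were higher (median 0.15; 0.09 without replicate 13 and 0.23 without replicate 14). Fdps, farnesyl diphosphate synthase, read 6.22, 6.03, 6.28 and 6.18 against 6.96, 6.30 and 6.93 (difference 0.55 ± 0.23 (SE), 95% interval 0.07 to 1.04), and Fdft1, squalene synthase, read 9.78, 9.28, 9.44 and 9.82 against 9.78, 9.86 and 10.29 (difference 0.40 ± 0.15 (SE), 95% interval 0.07 to 0.72). Replicate 14 was the closest of the Apoe/RAGE null arrays to the Apoe null levels of Fdps, and Fdft1 overlapped, with a difference of 0.24 without replicate 15. Sqle, squalene epoxidase, differed by 0.37 and by -0.05 without replicate 13, where it read 7.77, and the transporters Abca1 (-0.07) and Abcg1 (-0.15) were level. Lipogenesis (median 0.06), fatty acid oxidation (0.07) and oxidative phosphorylation (0.08) differed by little. In these 3 lists replicate 15 had the highest and replicate 13 the lowest score of the 3 Apoe/RAGE null arrays. Fasn (0.05, 95% interval -0.63 to 0.73) is the fatty acid synthase and Hadha (0.05, -0.60 to 0.69) an enzyme of beta oxidation.

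Detoxification genes gave isolated differences. Of 23 glutathione and Nrf2 target genes, 15 were higher with a median of 0.01, and 20 had intervals within 0.5 of 0. Besides Gsta3, the sulfiredoxin Srxn1 (0.19, 95% interval -0.01 to 0.38) and the thioredoxin reductase Txnrd1 (0.12, 95% interval -0.04 to 0.27) were higher without overlap, by small amounts, while Hmox1 (-0.09) and Gclm (0.01) overlapped. Methylglyoxal, a precursor of RAGE ligands, is removed by Glo1, which read 8.63, 9.02, 9.38 and 9.31 against 9.55, 9.34 and 9.31 (difference 0.31 ± 0.16 (SE), 95% interval -0.03 to 0.66) and by 0.16 without replicate 5. Glo1 lies within 200 genes of Ager. Aldh1a1, an aldehyde dehydrogenase, read 8.20, 8.34, 8.38 and 8.63 against 8.73, 8.66 and 8.92 (difference 0.39 ± 0.17 (SE), 95% interval 0.01 to 0.76) without overlap. Of the NADPH oxidase genes, Cybb differed by -0.32 and Nox4 by 0.08.

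Immediate early genes were lower for 17 of 18 (median -0.20; -0.13 without replicate 6 and -0.07 over all 29 probe sets of these genes), none with an unadjusted p under 0.05. Nr4a1, an orphan nuclear receptor, read 8.97, 9.11, 9.17 and 9.43 against 8.05, 8.79 and 8.70, and Junb 5.67, 6.12, 5.58 and 5.74 against 5.30, 5.58 and 5.49, both without overlap. Their differences were -0.66 and -0.32, and -0.43 without replicate 13 and -0.21 without replicate 6. Egr1 (-0.28) and Fos (-0.30) overlapped, and both were smaller in size without replicate 6 (-0.12 and -0.15). Of 14 heat shock and chaperone genes Pdia4, an isomerase of the endoplasmic reticulum, had the smallest p (-0.28, 95% interval -0.54 to -0.01; -0.16 without replicate 13), and the list's median was -0.04.

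Among the clock genes 2 of 14 were lower and 1 higher at an unadjusted p under 0.05, and none passed the adjusted test. Over all genes 1.28% were lower and 1.34% higher at that p. The circadian clock is a feedback loop in which Arntl and Clock drive genes through the E-box CACGTG, among them their own repressors of the Per and Cry families and Nr1d1, which in turn represses Arntl. Most members cycle through the day in the aorta, and no hour of dissection is given for these mice in the sources used here. Nr1d1 read 7.95, 8.39, 7.71 and 7.33 in Apoe null and 6.94, 6.78 and 7.17 in Apoe/RAGE null aortas (difference -0.88 ± 0.28 (SE), 95% interval -1.48 to -0.29), with all 3 Apoe/RAGE null arrays lowest. Cry1 read 4.66, 5.12, 5.30 and 5.68 against 6.00, 5.81 and 5.95 (difference 0.73 ± 0.24 (SE), 95% interval 0.22 to 1.24), with all 3 highest.

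Dbp, an output gene of the loop, read 11.03, 11.33, 11.05 and 10.70 against 10.83, 10.27 and 10.43 (difference -0.52 ± 0.20 (SE), 95% interval -0.94 to -0.10), and replicate 13 overlapped Apoe null replicate 8. Ciart, a repressor within the loop, read 6.62, 6.89, 6.70 and 6.63 against 6.30, 6.34 and 6.49 (-0.34, 95% interval -0.72 to 0.05), and Arntl 4.07, 4.06, 4.19 and 3.97 against 4.23, 4.28 and 4.33 (0.21, 95% interval -0.04 to 0.47), both without overlap, Ciart lower and Arntl higher. The other 9 of the 14 measured clock genes overlapped, among them Per2 (0.42), whose lowest value was in Apoe null replicate 5 (0.12 without it), and Nr1d2 (0.00). The adjusted p was 0.9999 for Nr1d1 and Cry1. Within the Apoe null group replicate 8 lay nearest the Apoe/RAGE null arrays for Nr1d1, Dbp and Cry1.

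**Figure D5:**
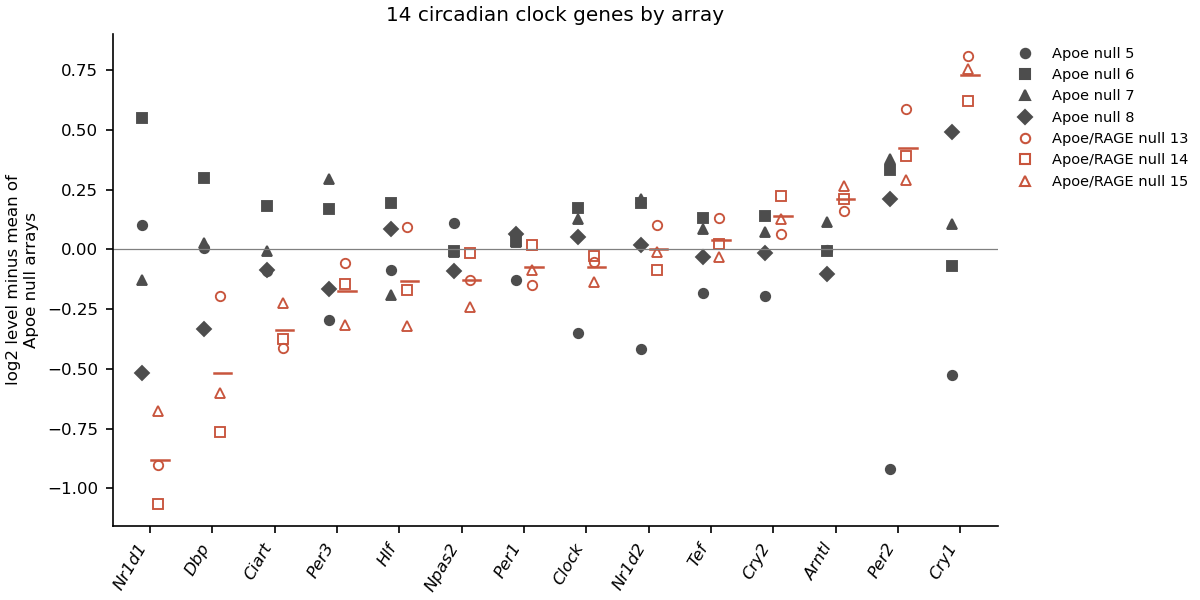
Log2 level in each array minus the mean of the 4 Apoe null arrays for the 14 measured circadian clock genes, in order of their difference, with filled symbols for Apoe null, open symbols for Apoe/RAGE null and a bar at the Apoe/RAGE null mean. Nr1d1 and Ciart lie below and Cry1 and Arntl above all Apoe null arrays, and replicate 5 is the lowest point of Per2, Clock and Nr1d2.

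The promoters of the 4 clock genes with the smallest p were read from RefSeq on build GRCm38.p6, 250 bases upstream of the annotated start. The E-box CACGTG, which reads the same on both strands, was found in 6.02% of 32817 such windows over all genes. It was in the windows of Ciart and Cry1 and not in those of Nr1d1 and Dbp. Of the 13 clock genes with an entry, 4 had it in any of their windows. Some of these genes have several windows, so counts of genes are not on the same footing as the share of windows. The windows of Ciart (chr3:95882229-95882478, minus strand) and Cry1 (chr10:85185055-85185304, minus strand) are shown because one gene was lower and the other higher in Apoe/RAGE null aortas while both carry the motif, 3 copies in Ciart and 1 in Cry1. Capitals mark the E-boxes.
Ciart: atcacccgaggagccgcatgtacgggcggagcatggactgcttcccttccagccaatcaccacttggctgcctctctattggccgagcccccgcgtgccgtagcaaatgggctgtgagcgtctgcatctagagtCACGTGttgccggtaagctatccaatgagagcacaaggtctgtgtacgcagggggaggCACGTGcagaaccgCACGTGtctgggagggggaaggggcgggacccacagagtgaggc
Cry1: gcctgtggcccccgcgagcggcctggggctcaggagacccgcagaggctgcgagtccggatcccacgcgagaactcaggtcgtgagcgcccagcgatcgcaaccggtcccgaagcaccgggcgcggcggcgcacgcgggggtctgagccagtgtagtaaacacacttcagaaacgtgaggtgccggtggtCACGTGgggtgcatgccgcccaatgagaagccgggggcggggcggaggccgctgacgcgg
The ROR element core TNGGTCA, searched on both strands, was in any window of 4 of the 13 genes and in 9.19% of all windows. The D-box TTANGTAA, also on both strands, was in 1 of the 13 and in 2.06% of all windows.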

How the data were processed

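The deposited table holds log2 values for 45101 probe sets of a mouse 3' expression array in 15 aortas, 1 array per mouse, summarized by the authors with RMA (named in the submitters' processing notes). The version, and whether all arrays were processed together, are not given in the sources used here. RMA removes differences in total signal and compresses dim probe sets. After leaving out 64 control probe sets, 45037 were tested with limma 3.58.1 (R 4.3.3) in a model with 1 mean per group over the 15 arrays, 11 residual degrees of freedom, moderated variances and Benjamini-Hochberg adjustment at 0.05. No replicate numbers pair mice, and where mice of a group share a litter is not given, so p-values measure the spread between these samples.

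Platform annotation gave 1 gene for 34945 probe sets, several for 932 and none for 9160, and 34741 of the first were matched to current symbols by Entrez ID. Each of 18193 genes was represented by its brightest probe set, by mean level in all 15 arrays. Gene order and promoters came from RefSeq tables. Probe sets whose names end in _s_at, _x_at or _a_at can match several transcripts.

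Named genes were Ager and Apoe, the 12 genes with the smallest p on each side, the 4 members of each list with the smallest p, every measured RAGE ligand, and the 6 genes with the smallest p among the 100 nearest to Ager. Genes of the probe sets called in smaller fits, and other list members named for their known roles, were chosen after values were seen. The members and lists were chosen with earlier results of these data known. Alternatives changed the arrays in the fit, the filter, normalization, variance model, array weights, probe set choice and threshold, and left out each array. Calculations in Python 3.11.15 used pandas 2.3.3, and figures matplotlib 3.10.9. The procedure was tested on simulated data.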

Additional observations from a re-analysis of the deposited data

Results flagged for a closer look

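Each of 64 results was examined for an array far from the others among the 4 Apoe null arrays. The measure was the gap from the highest or lowest array to its nearest neighbour as a share of the group's range, judged by Dixon's test, and chance passes about 5% of groups. Both results that passed were in Apoe null replicate 5. Cyp39a1 read 4.082 there and 4.907 in the nearest Apoe null array, a gap of 0.917 of the range. The cell cycle score was 0.185 there and -0.083 in the nearest array, a gap of 0.848 of the range.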

How the results depend on the processing

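The call of 0 probe sets became 5 with only the 7 non-diabetic arrays and 9 without diabetic Apoe/RAGE null replicates 9 and 10. The cause was not tested. With array weights the genes at an unadjusted p under 0.05 went from 476 to 1035, and with dim probe sets left out, so that fewer genes were tested, to 233. Genes with non-overlapping groups went from 886 to 518 with dim probe sets left out, and to between 1434 and 2289 when 1 of the 7 arrays was left out, since fewer arrays separate more easily by construction. Of the count and call results, 43 other values stayed within 1.5 times or on their side of the threshold. For Ager, Apoe and the 24 genes with the smallest p, 27 probe sets in all, the 367 values under alternatives kept their direction and side of the threshold. Several alternatives leave the group means unchanged, so the differences could not move there. The 24 genes were also picked for a small p, which favours a kept direction. Direction and side of the threshold were not always kept by the genes called only in the smaller fits and other list members, as the values above show (Sqle changed sign without replicate 13). Of the list medians 396 stayed within the spread between replicates and 11, in 7 lists, did not. No paired analysis was possible because the replicate numbers run from 1 to 15 through the series and no number occurs in more than 1 group. With 3 and 4 arrays a group and a median standard error of 0.124, small differences cannot be seen, and many of the dim genes named lie near the array's background, where differences are compressed. Genotype, colony and the region around Ager cannot be told apart, nor can handling or time of dissection from the groups.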

Other observations

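Adventitial fibroblast genes were lower for 8 of 9 in Apoe/RAGE null aortas, with a median difference of -0.12 (-0.20 without replicate 5) and none at an unadjusted p under 0.05. Pi16, a marker of adventitial stromal cells, read 9.86, 9.93, 10.05 and 9.83 in Apoe null replicates 5 to 8 and 9.51, 9.64 and 9.50 in Apoe/RAGE null replicates 13 to 15, without overlap. Complement genes were lower for 9 of 9 (median -0.12; -0.07 without replicate 13 and -0.07 over all 19 probe sets of these genes). Cd55, which protects cells from complement, read 5.71, 5.54, 5.84 and 5.86 against 5.40, 4.75 and 5.21 (difference -0.62, 95% interval -1.35 to 0.11, adjusted p = 0.9999), again without overlap. Class I antigen presentation was lower for 9 of 10 genes (median -0.11, -0.03 without replicate 13 and -0.17 without replicate 14), and T and NK cell genes had a median of 0.02.

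Interferon-stimulated genes were higher for 12 of 15, with a median of 0.06. At an unadjusted p under 0.05, 1 was higher and 1 lower, where 1.34% and 1.28% of all genes were. Ifit1, an RNA-binding antiviral protein, read 4.55, 4.07, 4.30 and 4.99 against 5.00, 5.53 and 4.76 (difference 0.62, 95% interval 0.06 to 1.18), and Rsad2, the antiviral enzyme viperin, read 9.23, 7.29, 7.61 and 7.97 against 7.34, 7.36 and 7.07 (difference -0.77, 95% interval -1.52 to -0.01). Both overlapped between the groups. Without replicate 14 the Ifit1 difference was 0.40, and without replicate 5, the highest for Rsad2, the Rsad2 difference was -0.37. Proliferation genes were at low levels in most arrays, and Ccnb2, a mitotic cyclin, read 3.50, 3.17, 3.03 and 3.19 against 2.70, 2.80 and 2.78 (difference -0.46, 95% interval -0.92 to 0.00), with all 3 Apoe/RAGE null arrays lowest. Fat and mesothelium lists had medians near 0 that changed with the array left out. The white adipocyte median was 0.01 and the brown adipocyte median 0.05 (-0.11 without replicate 15 and 0.29 without replicate 13). The mesothelial median was 0.01 (-0.35 without replicate 15 and 0.28 without replicate 13). The mesothelial score ran from -0.75 to 0.37 in Apoe null and from -0.57 to 0.65 in Apoe/RAGE null arrays.

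Several chromosome 17 genes outside the set named by rule had large differences, and they were picked after their values were seen. Zfp945, a zinc finger gene, differed by -1.80 with no overlap, though it did not reach an unadjusted p of 0.05. Eme2, a DNA repair nuclease subunit, differed by -0.90 without overlap, and Fkbp5, a chaperone of the glucocorticoid receptor, by 0.72 with overlap, both at an unadjusted p under 0.05.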
